A study of Homo sapiens with 12 samples.

Results

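CDC42, its 5 effector proteins CDC42EP1 to CDC42EP5 and the 3 RIPOR genes were followed through every library of this study, 9 genes of the 57820 listed in the count tables. The genes were taken by name (RIPOR1, RIPOR2 and RIPOR3 were formerly FAM65A, FAM65B and FAM65C), and the set was chosen by measured values: the poly(A) fold changes of CDC42EP3, which had opposite signs in the 2 poly(A) comparisons. For that reason every poly(A) value of the 9 genes is a description without a test, and tests of them were made in chromatin RNA, whose fold changes the rule of choice does not name. Earlier results of these data were known when the genes were chosen, so the chromatin tests are not shown to be independent of the choice. Of these genes, 8 passed the low-count filter in the first poly(A) comparison and 9 passed it in each of the others.

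All 12 libraries came from T47D-MTVL, a line of hormone-responsive breast cancer cells with 1 integrated luciferase reporter behind the MMTV promoter, kept in medium with charcoal-treated serum. In poly(A) RNA, 2 libraries from cells transfected with an siRNA against PADI2 (siPADI2) were compared with 2 from cells given a control siRNA (siCtrl). A further 2 poly(A) libraries labelled as expressing the R1810A form of RNA polymerase II (RNAP2) were compared with 2 labelled as expressing its wild-type form (WT). Both forms were HA-tagged and resistant to alpha-amanitin, a fungal toxin that inhibits endogenous RNAP2, and both groups had 24 hours of expression and then 12 hours in 6 µg/ml of the toxin. In RNA bound to chromatin, 2 libraries after siPADI2 were compared with 2 after siCtrl. None of these cells received a progestin, per the labels. PADI2 is a peptidylarginine deiminase, which turns arginine in proteins into citrulline, and R1810A replaces an arginine in the tail of the largest RNAP2 subunit.

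Some facts of the series bear on every value below. Total counts ranged, in units of 1e6, from 44.32 to 132.76 in poly(A) libraries and from 2.72 to 7.04 in chromatin libraries. PADI2 stood at 1.83 and 1.88 counts per 1e6 (CPM) after siPADI2 and at 24.0 and 22.6 CPM after siCtrl in poly(A) RNA, and at 8.52 and 14.2 CPM after siPADI2 and 34.9 and 32.5 CPM after siCtrl in chromatin RNA. The libraries labelled R1810A were low in PADI2 too, with 3.13 and 2.35 CPM against 48.9 and 50.7 CPM in WT, so those libraries are named by their label throughout. Among 8 luminal markers, 7 were abundant in every poly(A) library, while TFF1 lay at 0.265 CPM or below. The summed luminal markers moved with the groups, at 4920 and 4510 CPM after siPADI2 against 9580 and 8490 CPM after siCtrl, and at 4720 and 5400 CPM in the libraries labelled R1810A against 8460 and 8950 CPM in WT. Of 5 markers of other cells, the basal keratins KRT5 and KRT14 and the leukocyte gene PTPRC lay at or near 0 in poly(A) RNA. The mesenchymal markers did not: VIM lay between 3.19 and 9.73 CPM, and COL1A1 made up most of the sum of the 5. COL1A1 had 67.3 and 67.8 CPM after siPADI2 against 72.8 and 59.5 CPM after siCtrl. In the libraries labelled R1810A it had 56.5 and 48.2 CPM against 58.2 and 43.1 CPM in WT. The sum of all 5 was 70.8 and 71.0 CPM after siPADI2 against 78.6 and 66.5 CPM after siCtrl, and 65.4 and 58.0 CPM in the libraries labelled R1810A against 66.2 and 51.8 CPM in WT. The part of these shifts in the results was not tested.

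CDC42 is a small GTPase that switches between a GTP-bound and a GDP-bound state, and in the GTP-bound state it recruits effectors that set cell polarity and shape the actin cytoskeleton. The CDC42EP proteins, also called Borg proteins, are such effectors: they bind active CDC42 through a CRIB motif and also bind septins, GTP-binding proteins that assemble into filaments. RIPOR1 works with kinases that orient the Golgi in migrating cells, and RIPOR2 restrains RHOA in lymphocytes. Less is known of RIPOR3.

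By position in the deposited tables (hg19), the 9 genes lie apart, each spanning exons and introns of its own locus: CDC42 (ENSG00000070831.11) at chr1:22379120-22419437, CDC42EP1 (ENSG00000128283.6) at chr22:37956454-37965412, CDC42EP2 (ENSG00000149798.3) at chr11:65082289-65089900 and CDC42EP3 (ENSG00000163171.6) at chr2:37869032-37965611. CDC42EP4 (ENSG00000179604.8) lies at chr17:71279763-71308314, CDC42EP5 (ENSG00000167617.2) at chr19:54976210-54984411, RIPOR1 (ENSG00000039523.13) at chr16:67552321-67580691, RIPOR2 (ENSG00000111913.11) at chr6:24797601-25042238 and RIPOR3 (ENSG00000042062.7) at chr20:49202645-49308065. The 9 loci are thus on 9 chromosomes.

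The promoters of 2 pairs of relatives are shown. The pairs hold CDC42EP3, the gene for which the set was proposed, and RIPOR3, the gene of the 9 with the largest poly(A) change after siPADI2. Each is set beside a relative whose window was richer in G and C. Each window is the 250 bases before the start site in the RefSeq promoter table (GRCh38.p14), 5′ to 3′ on the gene's strand; where the table lists several starts for a gene, the one farthest upstream was taken. Capitals mark 4 motifs, searched on both strands: the TATA box TATAAA, the CAAT box CCAAT, the GC box GGGCGG and the cyclic AMP response element TGACGTCA.
CDC42EP3, chr2:37672950-37673199 (minus strand): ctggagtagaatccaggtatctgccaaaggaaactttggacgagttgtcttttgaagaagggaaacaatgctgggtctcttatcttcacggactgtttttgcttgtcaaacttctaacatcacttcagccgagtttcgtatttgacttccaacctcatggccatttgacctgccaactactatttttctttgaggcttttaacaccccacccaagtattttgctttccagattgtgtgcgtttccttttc
CDC42EP1, chr22:37560230-37560479 (plus strand): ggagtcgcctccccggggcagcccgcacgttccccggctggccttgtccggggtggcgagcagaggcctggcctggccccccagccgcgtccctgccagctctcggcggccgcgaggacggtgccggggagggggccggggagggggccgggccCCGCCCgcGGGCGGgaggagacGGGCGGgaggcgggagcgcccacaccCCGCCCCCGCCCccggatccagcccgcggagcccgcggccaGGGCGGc
RIPOR3, chr20:50636794-50637043 (minus strand): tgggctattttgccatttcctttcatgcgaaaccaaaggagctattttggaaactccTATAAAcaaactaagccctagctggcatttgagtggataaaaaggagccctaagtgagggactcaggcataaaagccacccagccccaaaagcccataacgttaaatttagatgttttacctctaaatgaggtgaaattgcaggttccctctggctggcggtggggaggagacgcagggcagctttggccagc
RIPOR1, chr16:67528579-67528828 (plus strand): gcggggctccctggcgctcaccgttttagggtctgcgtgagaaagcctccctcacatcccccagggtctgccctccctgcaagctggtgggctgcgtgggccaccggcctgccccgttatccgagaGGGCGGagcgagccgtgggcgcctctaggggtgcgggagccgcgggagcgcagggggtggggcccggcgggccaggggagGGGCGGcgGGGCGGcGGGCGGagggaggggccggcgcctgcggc
A window was matched for 8 of the 9 genes, and CDC42EP5 had none. The CDC42EP3 window held 42.4% G and C and none of the 4 motifs, whereas the CDC42EP1 window held 84.0% G and C and 6 GC boxes, of which 2 abut. RIPOR3 had 47.6% G and C and 1 TATA box, which began 193 bases before the start site, and RIPOR1 had 77.6% G and C and 4 GC boxes. The other windows were 78.0% (CDC42EP2), 70.8% (CDC42EP4), 64.8% (CDC42) and 54.8% (RIPOR2) G and C, and each held at least 1 GC box. Over the 35116 windows of the table the median was 58.0%, 42.6% held a GC box, 32.0% a CAAT box, 10.7% a TATA box and 1.65% the cyclic AMP response element, which of the 9 genes was found at CDC42. CDC42EP3 and RIPOR3 were thus the 2 windows of the 8 with the lowest G and C content and the 2 without a GC box. This holds for the windows taken: CDC42EP3 and RIPOR1 have 3 listed starts each and RIPOR2 has 5. The windows at their other starts were not examined gene by gene. The windows are on GRCh38.p14 and the counted genes on hg19. Whether a window lies at the outer end of its gene as counted was not examined, also not for RIPOR3 with its 1 listed start.

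In poly(A) RNA the 9 genes spanned a wide range of levels. Per kilobase of exon, siCtrl libraries held 105 ± 2.91 CPM of CDC42 (SD, n = 2 here and below), 34.0 ± 1.61 of CDC42EP4, 27.1 ± 3.29 of CDC42EP1, 9.77 ± 0.687 of RIPOR3 and 6.999 ± 0.274 of RIPOR1. CDC42EP2 followed at 2.79 ± 0.342, CDC42EP3 at 1.41 ± 0.0876 and CDC42EP5 at 0.906 ± 0.0339 CPM per kilobase. RIPOR2 was barely detected, with 0 and 9 reads in the siCtrl libraries. In WT libraries the order differed in the middle: CDC42EP3, at 10.3 ± 0.0191 CPM per kilobase, stood above RIPOR1 at 8.13 ± 0.148 and RIPOR3 at 1.82 ± 0.532. Each experiment was scaled on its own libraries, and siCtrl and WT cells also differ in transfection and toxin, so these differences between experiments cannot be told apart from the handling.

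**Figure D1:**
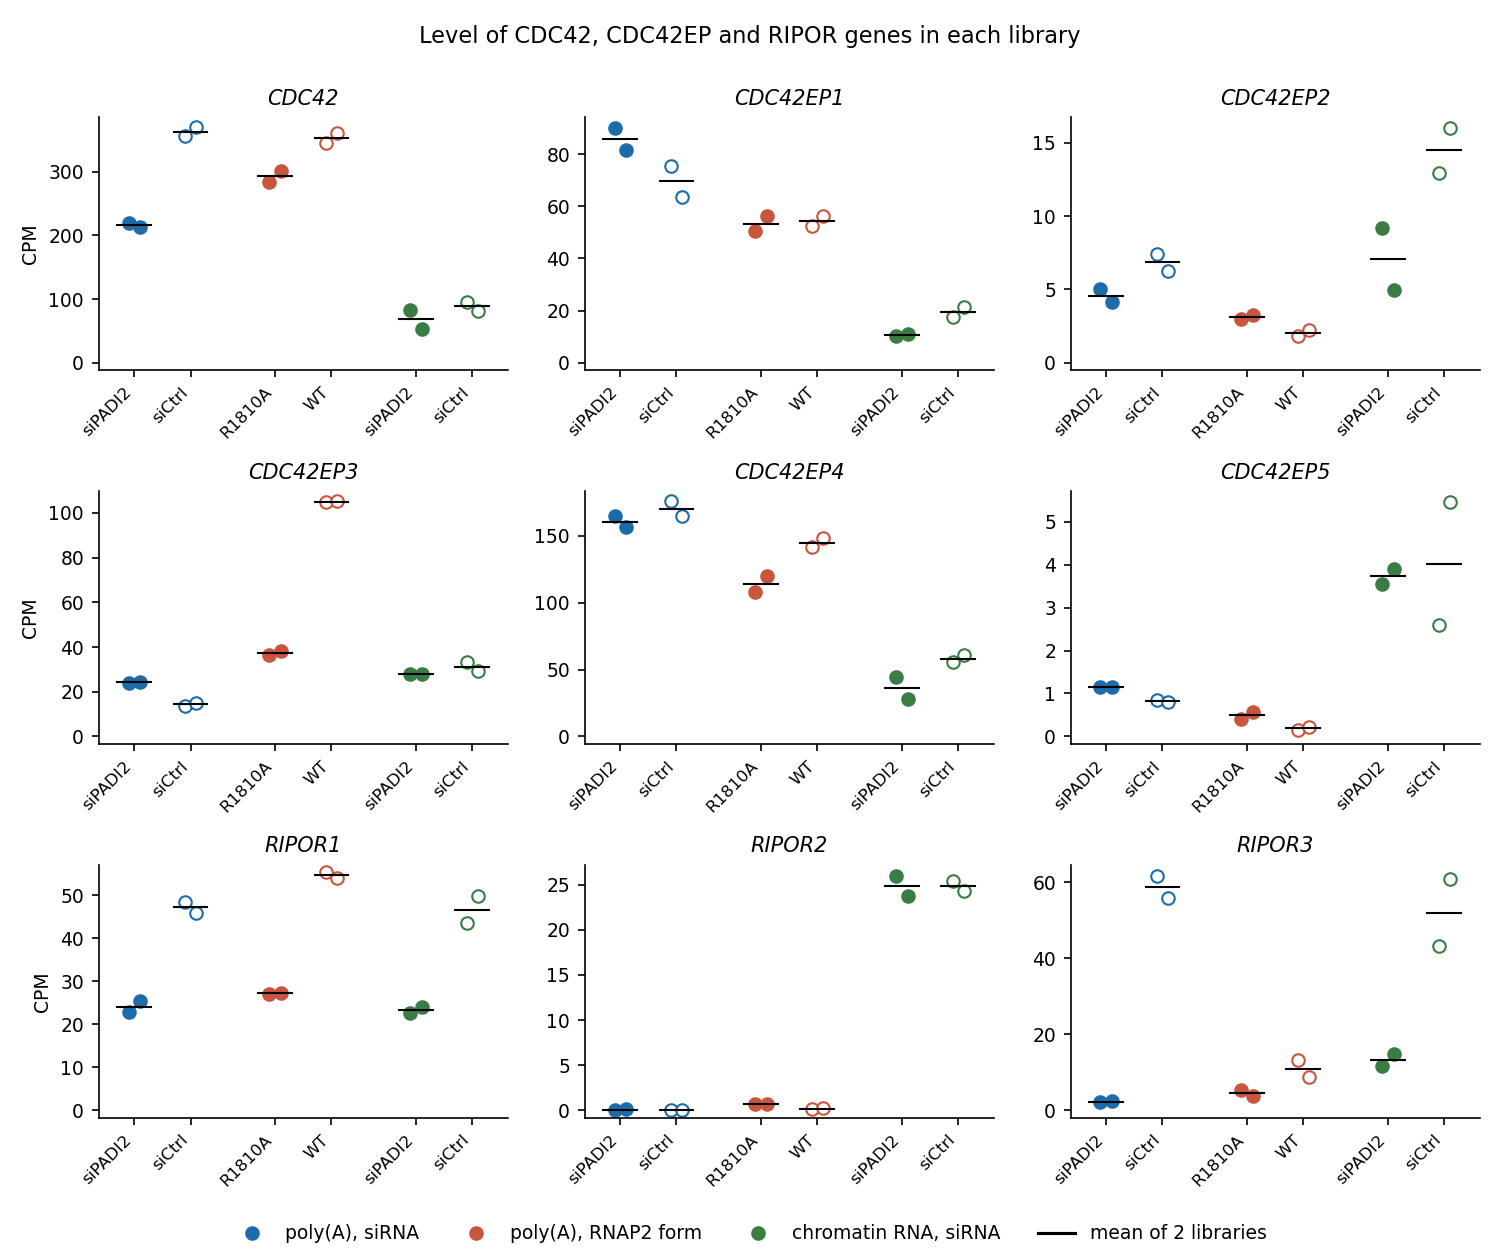
Level of each of the 9 genes in every library, in TMM-scaled counts per 1e6 (CPM) on a linear axis from 0, with a panel per gene; filled circles are siPADI2 or R1810A-labelled libraries, open circles siCtrl or WT libraries, and lines the mean of 2 libraries. RIPOR3 stood at 2.24 and 2.37 CPM after siPADI2 against 61.6 and 55.8 CPM after siCtrl in poly(A) RNA, and CDC42EP3 was above siCtrl after siPADI2 but below WT in the libraries labelled R1810A.

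CDC42 itself, the GTPase of the group, had 220 and 213 CPM after siPADI2, against 356 and 370 CPM after siCtrl. Both siPADI2 libraries lay below both siCtrl libraries, with a log2 fold change of −0.74 (SE 0.0836). Fewer cells of a kind and less RNA per cell cannot be told apart in such bulk libraries, here and in what follows. CDC42 was lower in the other experiment as well, with 285 and 302 CPM in the libraries labelled R1810A, against 345 and 362 CPM in WT (log2 −0.27, SE 0.0678). The 7 CDC42 pseudogenes in the annotation together held at most 0.178% as many reads as CDC42 in any poly(A) library.

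CDC42EP3, the effector for which the set was proposed, had 23.7 and 24.6 CPM after siPADI2, against 13.8 and 15.1 CPM after siCtrl. Its level in the libraries labelled R1810A was 36.5 and 38.4 CPM, against 105 and 105 CPM in WT. The siPADI2 libraries were thus above their controls (log2 0.74, SE 0.101) and the libraries labelled R1810A below theirs (log2 −1.49, SE 0.0591, 2.81-fold lower), with no overlap of libraries in either. Ordered by level, WT stood highest, then the libraries labelled R1810A, siPADI2 and siCtrl, with no overlap between neighbours in that order. Of the 18260 genes tested in both poly(A) comparisons, 269 (1.47%) were called higher after siPADI2 and lower under the R1810A label, a call being an adjusted p under 0.05 in each. CDC42EP3 was chosen for this pattern, so nothing is read from its place among them. Its antisense neighbour CDC42EP3-AS1 held at most 1 read in any poly(A) library.

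CDC42EP2, another Borg protein, moved the other way round, at a low level. It had 5.02 and 4.11 CPM after siPADI2, against 7.44 and 6.25 CPM after siCtrl (log2 −0.57, SE 0.134), and 2.95 and 3.23 CPM in the libraries labelled R1810A, against 1.83 and 2.22 CPM in WT (log2 0.61, SE 0.139). The groups did not overlap in either comparison, and 288 genes (1.58%) had this pattern in the calls. CDC42EP5 was higher in both comparisons and rarer still: 1.16 and 1.15 CPM after siPADI2, against 0.840 and 0.796 CPM after siCtrl (log2 0.51, SE 0.221). Under the R1810A label it had 0.401 and 0.576 CPM, against 0.152 and 0.225 CPM in WT (log2 1.37, SE 0.312), which are 50 and 75 reads against 19 and 29 reads.

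The 2 abundant effectors moved less. CDC42EP1 had 90.3 and 81.7 CPM after siPADI2, against 75.7 and 63.7 CPM after siCtrl, higher in both libraries (log2 0.31, SE 0.0885; 0.18 without siCtrl replicate 2 and 0.49 with total counts as library sizes). Its 50.5 and 56.2 CPM in the libraries labelled R1810A overlapped the 52.6 and 56.2 CPM of WT. CDC42EP4 had 164 and 157 CPM after siPADI2, against 176 and 165 CPM after siCtrl, a log2 fold change of −0.09 (SE 0.0826) that took the other sign, 0.10, with total counts as library sizes. The libraries labelled R1810A had 108 and 120 CPM of it, against 141 and 148 CPM in WT (log2 −0.35, SE 0.0657). The 5 Borg genes differed in direction in poly(A) RNA, as the plot of fold changes shows. The opposite signs of CDC42EP3 were fixed by the choice of the set, so nothing is read from this difference.

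RIPOR3 had the largest poly(A) change of the 9 genes. It stood at 2.24 and 2.37 CPM after siPADI2, against 61.6 and 55.8 CPM after siCtrl, and was 25.4-fold lower (log2 −4.67, SE 0.114). By absolute log2 fold change it was past 99.79% of the 18720 genes tested. This comparison was known when the genes were chosen, so nothing is read from that rank. Libraries labelled R1810A held 5.43 and 3.70 CPM, against 13.2 and 8.67 CPM in WT, again with no overlap, but with a wide spread within each group (log2 −1.26, SE 0.379). Its antisense neighbour RIPOR3-AS1, counted by strand, had 1 and 5 reads after siPADI2 and 12 and 49 reads after siCtrl, and 5 and 16 reads in the libraries labelled R1810A against 19 and 25 reads in WT.

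RIPOR1, the member that works with Golgi-orienting kinases, was lower in all libraries of both poly(A) comparisons than in their controls. It had 22.8 and 25.3 CPM after siPADI2, against 48.4 and 45.8 CPM after siCtrl (log2 −0.97, SE 0.0929), and 27.1 and 27.3 CPM in the libraries labelled R1810A, against 55.4 and 54.0 CPM in WT (log2 −1.01, SE 0.0597). RIPOR2, known for its role in lymphocytes, did not pass the low-count filter in the siPADI2 comparison, with 5 and 12 reads after siPADI2 and 0 and 9 reads after siCtrl; the count of 0 allows a level of up to 0.072 CPM (3 counts, counting error only). The libraries labelled R1810A had 80 and 93 reads of RIPOR2, against 19 and 30 reads in WT (log2 1.81, SE 0.276).

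**Figure D2:**
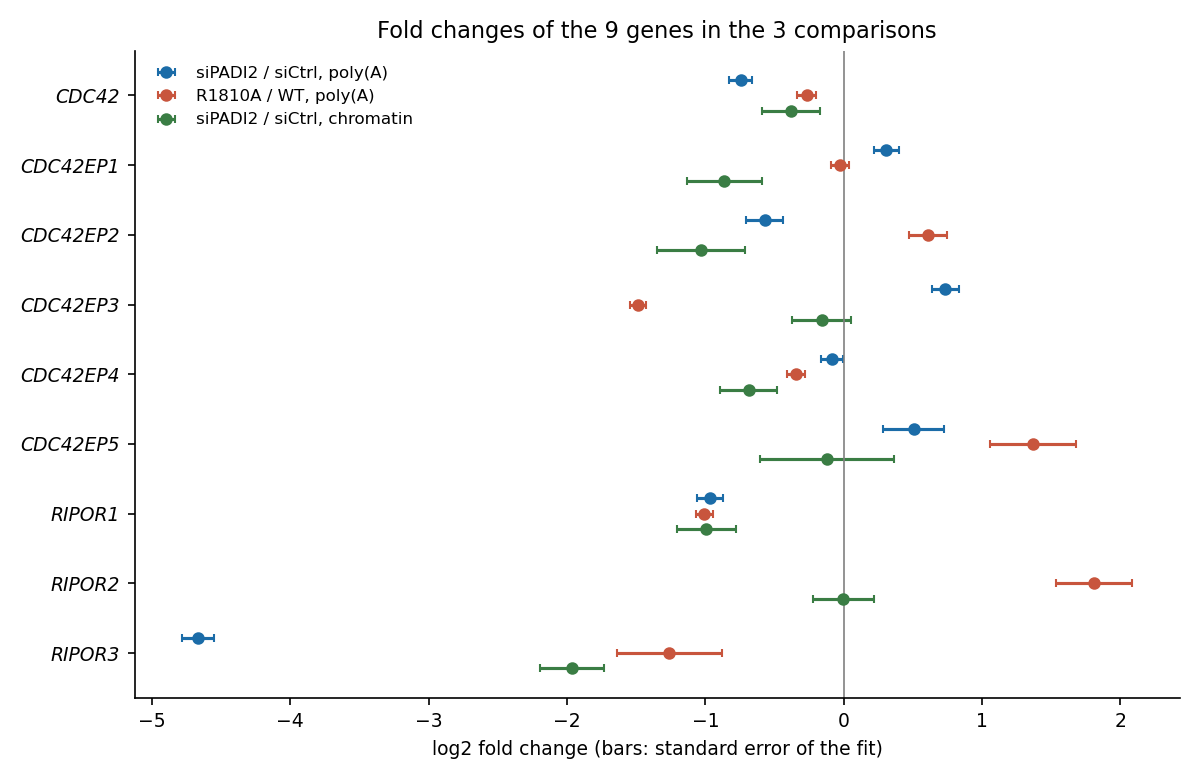
Log2 fold change of each gene (points, with the standard error of the fit as bars) for siPADI2 against siCtrl in poly(A) RNA, R1810A against WT in poly(A) RNA, and siPADI2 against siCtrl in chromatin RNA. CDC42EP3 lies at 0.74 and −1.49 in the poly(A) comparisons, RIPOR1 near −1 in all 3, and RIPOR3 at −4.67, −1.26 and −1.97. The chromatin fit shown has no offset for G and C content, with which RIPOR1 was not called lower.

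Of the 8 genes that passed the low-count filter, 3 were called higher after siPADI2 in poly(A) RNA, against 28.8% of all tested genes. Another 4 were called lower, against 27.9% (56.7% in either direction). Under the R1810A label 3 of 9 were called higher, against 22.6% of all tested genes, and 4 lower, against 24.3% (46.9% in either direction). The choice of the genes used these contrasts, so these calls are no test of them and nothing is read from the counts. Of the genes tested in both poly(A) comparisons, 15.2% were called higher in both and 16.2% lower in both. The median log2 fold change of all tested genes was 0.01 after siPADI2 and −0.02 in the libraries labelled R1810A.

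**Figure D3:**
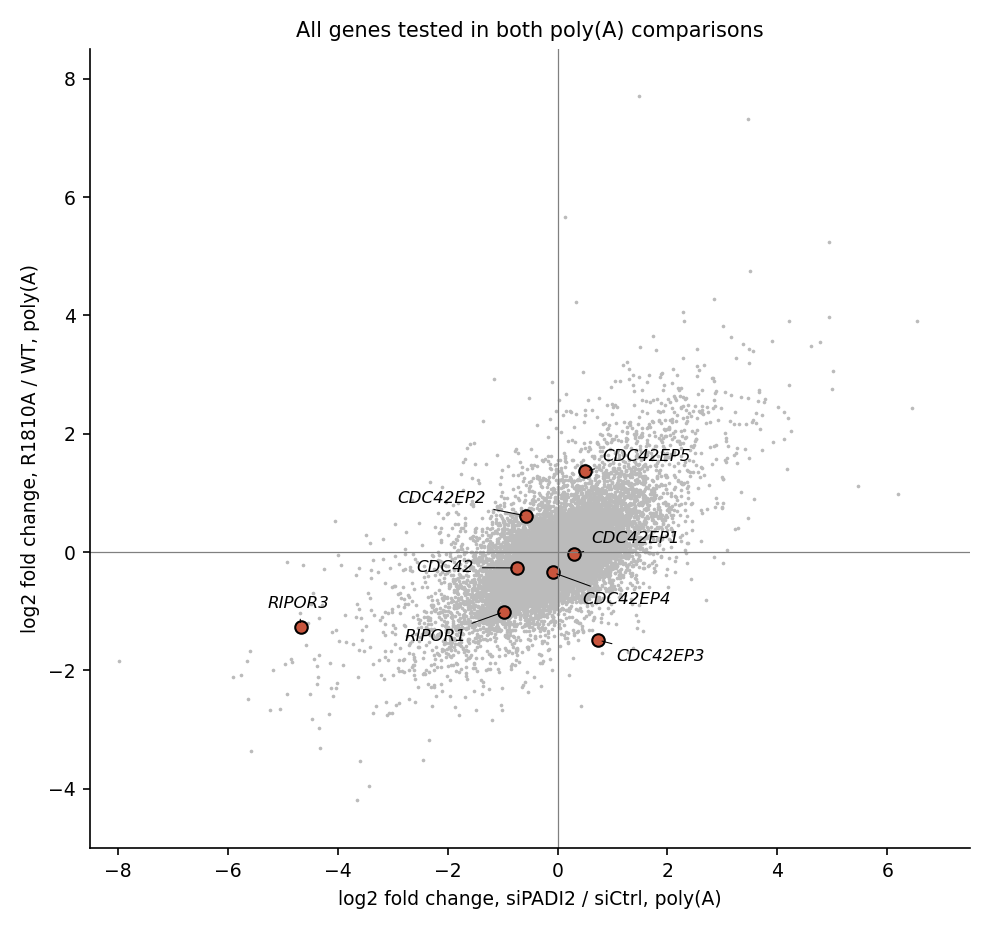
Log2 fold changes of the 18260 genes tested in both poly(A) comparisons (grey), siPADI2 against siCtrl on the horizontal axis and R1810A against WT on the vertical axis, with the 8 of the 9 genes tested in both in red. CDC42EP3 lies at 0.74 and −1.49, below and to the right of most genes, and RIPOR3 at −4.67 and −1.26, at the far left.

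By the smallest root-mean-square difference of centred log2 levels over the 12 libraries, among 28422 genes, the profiles close to that of CDC42EP3 included those of NINJ2-AS1 (0.215), CDH3 (0.236), ACTA2 (0.236) and the unnamed gene ENSG00000250899 (0.240). CDH3 encodes P-cadherin and ACTA2 smooth muscle actin. Their log2 fold changes in the libraries labelled R1810A ran from −1.37 for NINJ2-AS1 to −0.78 for CDH3, and after siPADI2 in poly(A) RNA from 0.04 for ENSG00000250899 to 0.53 for CDH3. The profiles most like that of RIPOR3 were CPNE7 (0.313), a copine, then SERPINA6 (0.396), the corticosteroid-binding globulin gene, PLA2G3 (0.429), a secreted phospholipase, ZG16B (0.442) and FMOD (0.469), an extracellular matrix proteoglycan. After siPADI2 in poly(A) RNA these 5 had log2 fold changes between −5.75 (FMOD) and −3.36 (ZG16B), and in the libraries labelled R1810A between −2.11 (PLA2G3) and −0.87 (SERPINA6). All these genes were picked for closeness over the same libraries, so fold changes near those of CDC42EP3 or RIPOR3 follow from the choice.

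Chromatin RNA, the RNA left on the pellet of nuclei washed with urea and detergent, offered a test of the 9 genes in libraries whose fold changes the rule of choice does not name. Only reads over exons were counted. After siPADI2, 5 of the 9 genes were called lower and none higher, against 20.1% of all 33879 tested genes called lower and 12.2% called higher (32.4% in either direction). Their median log2 fold change was −0.69, against 0.03 over all tested genes. RIPOR3 fell most: it had 11.7 and 14.9 CPM after siPADI2, against 43.1 and 60.8 CPM after siCtrl (33 and 42 reads against 266 and 413 reads), a log2 fold change of −1.97 (SE 0.23, adjusted p = 5.23e-15). RIPOR1 had 22.7 and 24.1 CPM after siPADI2, against 43.5 and 49.8 CPM after siCtrl, and fell by 0.99 on the log2 scale (SE 0.213, adjusted p = 4.92e-05).

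Among the effectors, CDC42EP1 fell in chromatin RNA, with 10.3 and 10.98 CPM after siPADI2, against 17.5 and 21.2 CPM after siCtrl (log2 −0.86, SE 0.27, adjusted p = 0.00726). CDC42EP2 fell as well, with 9.23 and 4.96 CPM after siPADI2, against 13.0 and 16.1 CPM after siCtrl (log2 −1.03, SE 0.317, adjusted p = 0.00619). CDC42EP4 had 44.4 and 27.6 CPM after siPADI2, against 55.5 and 60.5 CPM after siCtrl (log2 −0.69, SE 0.205, adjusted p = 0.00477). These 3 calls are each lost without 1 library: adjusted p was 0.11 for CDC42EP1, 0.11 for CDC42EP2 and 0.0522 for CDC42EP4 without siCtrl replicate 5, and 0.0509 for CDC42EP1, 0.238 for CDC42EP2 and 0.348 for CDC42EP4 without siPADI2 replicate 2. Without siPADI2 replicate 1 it was 0.0719 for CDC42EP1. The log2 fold change without siPADI2 replicate 1 was −1.55 for CDC42EP2 and −1.07 for CDC42EP4, and without siPADI2 replicate 2 it was −0.65 for CDC42EP2 and −0.38 for CDC42EP4. The Wald test of DESeq2 gave an adjusted p of 0.117 for CDC42EP1, 0.128 for CDC42EP2 and 0.0642 for CDC42EP4, and total counts as library sizes gave 0.0654 for CDC42EP1.

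The summed luminal markers moved with the groups in chromatin RNA too, at 1370 and 953 CPM after siPADI2 against 2280 and 2160 CPM after siCtrl, and the 5 markers of other cells summed to 136 and 148 CPM after siPADI2 against 187 and 210 CPM after siCtrl; their part in these calls was not tested.

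The remaining 4 genes did not pass the test in chromatin RNA. CDC42EP3 had 28.0 and 28.0 CPM after siPADI2, against 33.4 and 29.2 CPM after siCtrl (log2 −0.16, SE 0.213, adjusted p = 0.599). CDC42 had 83.4 and 52.4 CPM after siPADI2, against 95.7 and 81.4 CPM after siCtrl (log2 −0.38, SE 0.212, adjusted p = 0.154), and its groups overlapped; without siPADI2 replicate 1 its log2 fold change was −0.76 (adjusted p = 0.035) and without siPADI2 replicate 2 it was −0.081. The CDC42 pseudogenes held 13.2% and 26.4% as many reads as CDC42 after siPADI2, against 6.27% and 7.05% after siCtrl, and the part of this in the CDC42 value was not tested. CDC42EP5, with 10 and 11 reads after siPADI2 against 16 and 37 reads after siCtrl, overlapped between groups in CPM (adjusted p = 0.873), and so did RIPOR2, with 25.9 and 23.7 CPM after siPADI2 against 25.5 and 24.3 CPM after siCtrl (adjusted p = 0.995).

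RIPOR2, nearly absent from poly(A) RNA, was thus counted in chromatin RNA, per kilobase of exon, at about the level of CDC42EP3, and other genes nearly absent from poly(A) RNA were counted there too. PTPRC, a leukocyte gene, had 58.9 and 51.7 CPM after siPADI2, against 40.2 and 40.0 CPM after siCtrl in chromatin RNA, and at most 0.0401 CPM in poly(A) RNA. The 1377 genes with no read in any of the 8 poly(A) libraries and at least 2 kilobases of exon had a median of 1.78 CPM per kilobase in chromatin RNA after siPADI2 and 1.78 after siCtrl, with a 90th percentile of 4.69 after siPADI2 and 4.72 after siCtrl. Against that range, 3 genes lay within it in both groups: CDC42EP3 at 2.74 ± 0.00344 after siPADI2 and 3.06 ± 0.294 after siCtrl, CDC42EP5 at 4.12 ± 0.273 after siPADI2 and 4.45 ± 2.23 after siCtrl, and RIPOR2 at 3.23 ± 0.200 after siPADI2 and 3.23 ± 0.107 after siCtrl, all in CPM per kilobase. A further 4 genes were above it after siCtrl and within it after siPADI2: RIPOR3 at 2.21 ± 0.373 after siPADI2 and 8.65 ± 2.08 after siCtrl, RIPOR1 at 3.48 ± 0.145 after siPADI2 and 6.93 ± 0.663 after siCtrl, CDC42EP1 at 4.13 ± 0.190 after siPADI2 and 7.52 ± 1.01 after siCtrl, and CDC42EP2 at 2.89 ± 1.23 after siPADI2 and 5.92 ± 0.888 after siCtrl. CDC42, at 19.6 ± 6.31 after siPADI2 and 25.5 ± 2.90 after siCtrl, and CDC42EP4, at 7.19 ± 2.36 after siPADI2 and 11.6 ± 0.715 after siCtrl, lay above it in both groups. CDC42EP5 has 903 bases of exon, fewer than the 2 kilobases asked of the genes behind that range, so it is not compared like for like. Whether reads of the kind seen at PTPRC make up part of the members' chromatin counts was not tested.

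The chromatin fold changes moved with the G and C content of the exons. Over all tested genes the median log2 fold change was 0.49 in the lowest quartile of content (up to 43.23%) and −0.91 in the highest (from 55.82%). The lowest and highest quartiles had medians of 0.11 and −0.05 after siPADI2 in poly(A) RNA, and of 0.05 and −0.07 in the libraries labelled R1810A. The 5 genes called lower have exons of 58.42% (RIPOR3) to 63.23% (CDC42EP1) G and C, all within the highest quartile. With an offset for this content in the fit, RIPOR3 kept its call (log2 −1.16, adjusted p = 0.00039) and the other 4 lost theirs: RIPOR1 at −0.06 (adjusted p = 0.869), CDC42EP1 at 0.13 (adjusted p = 0.771), CDC42EP2 at −0.10 (adjusted p = 0.862) and CDC42EP4 at 0.27 (adjusted p = 0.353). CDC42 and CDC42EP3, at 43.54% and 44.4% G and C, instead passed, with log2 fold changes of −0.80 (adjusted p = 0.00947) and −0.55 (adjusted p = 0.041). The offset left a trend of the other sign among the 9118 genes with at least 400 reads over the 4 libraries, whose lowest quartile had a median of −0.30 and whose highest had 0.04. RIPOR3 was the one gene of the 9 called lower in every chromatin fit that was run.

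**Figure D4:**
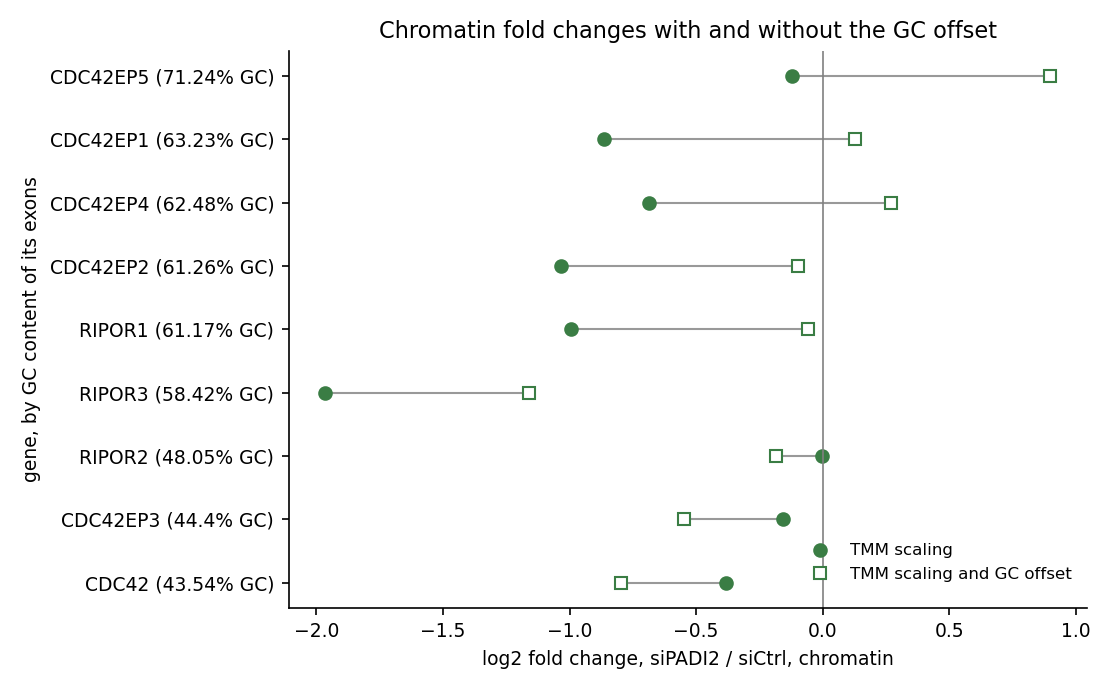
Log2 fold change of the 9 genes for siPADI2 against siCtrl in chromatin RNA, from the fit with TMM scaling (circles) and from the fit with an added offset for G and C content (squares), with the genes ordered by the G and C content of their exons. The genes of 58.42% and above shift to the right with the offset and those of 48.05% and below to the left, and RIPOR3 stays below 0 at −1.97 and −1.16.

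The other genes of the pathway were counted from lists chosen with earlier results of these data known. Of 13 septins, the filament proteins that Borg proteins bind, 11 passed the low-count filter in both poly(A) comparisons. Among them 8 were called lower after siPADI2 and none higher (median log2 fold change −1.08), where 1 was called higher with total counts as library sizes, with no low-count filter or without siCtrl replicate 2. In the libraries labelled R1810A 7 were called lower and none higher (median −0.71), where 1 was called higher with no low-count filter. All 7 were also among the 8. Of all tested genes 27.9% were called lower after siPADI2, 24.3% under the R1810A label and 16.2% in both. SEPTIN8 had 35.5 and 37.4 CPM after siPADI2, against 110 and 107 CPM after siCtrl (log2 −1.57, SE 0.0847, adjusted p = 7.36e-19), and SEPTIN11 had 46.9 and 52.7 CPM after siPADI2, against 131 and 140 CPM after siCtrl (log2 −1.45, SE 0.0857, adjusted p = 1.3e-17). SEPTIN4 fell by 1.38 on the log2 scale at a level under 1 CPM (adjusted p = 0.00126). SEPTIN9 had 157 and 165 CPM in the libraries labelled R1810A, against 347 and 348 CPM in WT (log2 −1.11, SE 0.0647, adjusted p = 2.51e-08), SEPTIN3 fell by 0.96 (adjusted p = 2.46e-06) and SEPTIN5 by 0.95 (adjusted p = 1.05e-06). SEPTIN7, singled out after its values were seen because septin filaments are built around it, had 268 and 287 CPM after siPADI2, against 227 and 263 CPM after siCtrl (adjusted p = 0.0751), and 304 and 315 CPM in the libraries labelled R1810A, against 287 and 293 CPM in WT (adjusted p = 0.263).

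In chromatin RNA 3 of 13 septins were called lower and 1 higher, beside 20.1% and 12.2% of all genes, with 1 lower and 1 higher under the offset for G and C content. SEPTIN9 fell by 1.48 on the log2 scale (65.7 and 56.7 CPM after siPADI2, against 162 and 180 CPM after siCtrl, adjusted p = 1.08e-08), SEPTIN5 by 0.87 (adjusted p = 0.0108) and SEPTIN8 by 0.68 (adjusted p = 0.00629). The septin called higher was SEPTIN14 (log2 0.60, adjusted p = 0.0145), which like RIPOR2 was nearly absent from poly(A) RNA, at 0.0538 CPM or below.

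**Figure D5:**
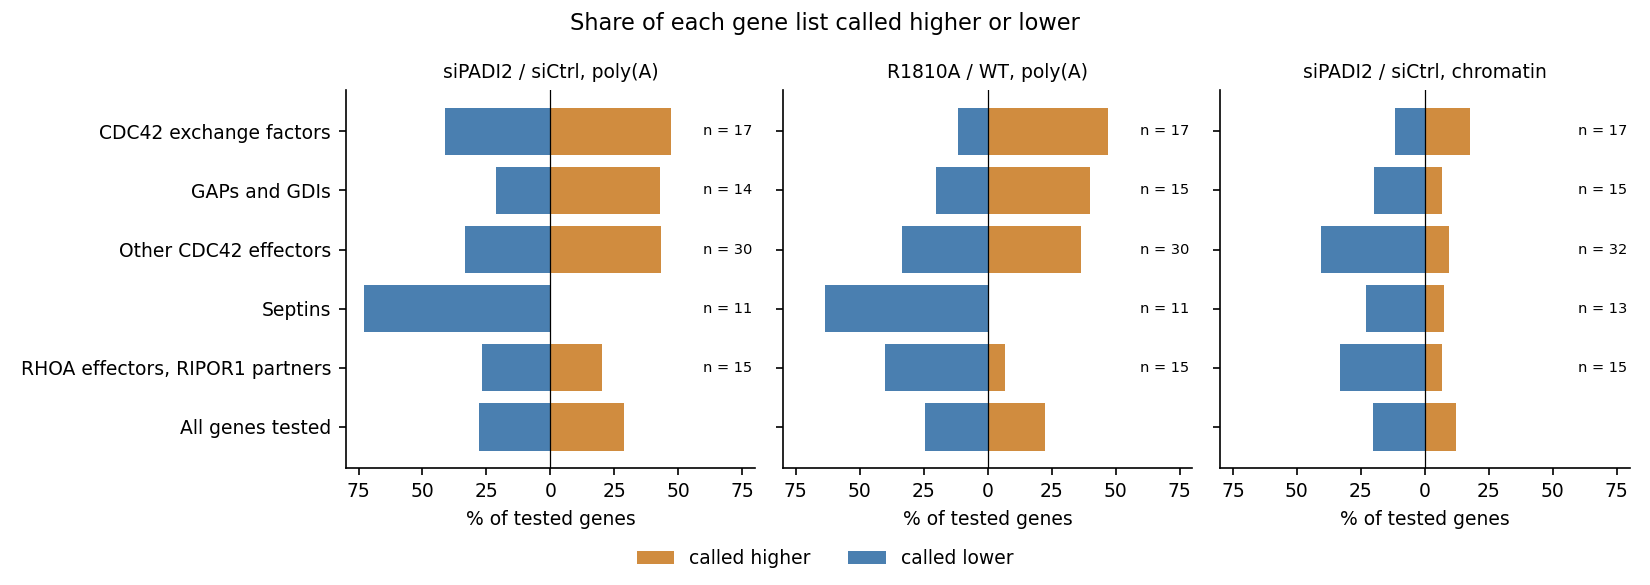
Share of the tested genes of 5 pathway lists called higher (right) or lower (left) in each comparison, in percent of the tested genes (n beside the bars), with all tested genes in the bottom row. Septins were called lower in 8 of 11 cases after siPADI2 and 7 of 11 in the libraries labelled R1810A in poly(A) RNA.

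Exchange factors load CDC42 with GTP. Of 17 tested, 8 were called higher and 7 lower after siPADI2 in poly(A) RNA (median 0.18), where 28.8% of all tested genes were called higher and 27.9% lower; with total counts as library sizes 9 were called higher and 4 lower. Under the R1810A label 8 were called higher and 2 lower (median 0.22), against 22.6% and 24.3% of all tested genes. FGD5, an exchange factor of endothelial cells, had 0.0589 and 0.102 CPM after siPADI2, against 2.81 and 2.44 CPM after siCtrl (log2 −4.97, SE 0.285, adjusted p = 5.11e-18), and fell by 1.90 in the libraries labelled R1810A (adjusted p = 3.03e-05). ARHGEF6 fell in both, by 1.67 after siPADI2 (adjusted p = 5.54e-16) and by 2.05 under the R1810A label (adjusted p = 2.29e-10). FGD3 fell after siPADI2 (−1.35, adjusted p = 2.47e-12). DNMBP, which serves cell junctions, rose in the libraries labelled R1810A (1.17, adjusted p = 3.32e-07) and less after siPADI2 (0.50, adjusted p = 0.000198). In chromatin RNA 3 were called higher and 2 lower, beside 12.2% and 20.1% of all tested genes. Those higher included FGD6 (0.62, adjusted p = 0.0099) and DOCK11 (0.78, adjusted p = 0.0237), and those lower FGD5 (−0.70, adjusted p = 0.00385). Under the offset 1 was called higher and 2 lower.

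GTPase-activating proteins and dissociation inhibitors turn the switch off or hold it inactive. After siPADI2 6 of 14 were called higher and 3 lower in poly(A) RNA (median 0.15), against 28.8% and 27.9% of all tested genes, and 10 were called higher with total counts. In the libraries labelled R1810A 6 of 15 were called higher and 3 lower (median 0.10), against 22.6% and 24.3% of all tested genes, and 3 were called higher without R1810A replicate 2 or without WT replicate 1. ARHGAP10 rose in both, with 21.5 and 20.2 CPM after siPADI2 against 7.44 and 8.24 CPM after siCtrl (log2 1.402, adjusted p = 4.52e-14), and by 1.42 in the libraries labelled R1810A (adjusted p = 2.59e-08). ARHGAP21, which acts on CDC42 at the Golgi, rose after siPADI2 (0.96, adjusted p = 2.26e-12) and the dissociation inhibitor ARHGDIB fell (−1.26, adjusted p = 1.86e-13). ARHGDIB also fell under the R1810A label (−0.32, adjusted p = 0.0023). ARHGAP32 rose in the libraries labelled R1810A (0.46, adjusted p = 6.02e-05). In chromatin RNA 1 of 15 was called higher and 3 lower, beside 12.2% and 20.1% of all tested genes. The 3 were ARHGAP1 (−0.70, adjusted p = 0.00566), BCR (−0.87, adjusted p = 0.00041) and ABR (−1.18, adjusted p = 6.4e-07). With the offset 1 was called higher and none lower.

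CDC42 effectors outside the Borg family also moved both ways. Of 30 tested, 13 were called higher and 10 lower after siPADI2 in poly(A) RNA (median 0.20), beside 28.8% and 27.9% of all tested genes. Under the R1810A label 11 were called higher and 10 lower (median 0.05), beside 22.6% and 24.3%, and 7 were called higher without WT replicate 1. The scaffold IQGAP2 rose in both at low levels (log2 1.58 after siPADI2, adjusted p = 3.95e-05, and 1.66 under the R1810A label, adjusted p = 3.19e-05). FMNL2, a formin that elongates actin filaments, rose after siPADI2 (1.75, adjusted p = 3.39e-08), and PARD6B, a polarity protein, had 26.1 and 31.7 CPM after siPADI2, against 66.6 and 86.8 CPM after siCtrl (−1.41, adjusted p = 4.66e-07). Under the R1810A label FMNL2 rose too (0.96, adjusted p = 0.000193) and PARD6B fell too (−0.82, adjusted p = 6.11e-07). Of the formins in the libraries labelled R1810A, DIAPH2 rose (1.77, adjusted p = 3.11e-09) and FMNL3 fell (−1.29, adjusted p = 1.37e-05). Both moved the same way after siPADI2, DIAPH2 by 1.335 (adjusted p = 9.58e-14) and FMNL3 by −1.11 (adjusted p = 0.000494). Of all genes tested in chromatin RNA, 20.1% were called lower and 12.2% higher. In chromatin RNA 13 of 32 were called lower and 3 higher, with PARD6A (−2.14, adjusted p = 6.99e-07), BAIAP2 (−1.26, adjusted p = 3.13e-07) and IQGAP3 (−1.10, adjusted p = 3.5e-06) changed most, and 5 lower and none higher with the offset; 6 were called lower without siPADI2 replicate 2 and 8 without siCtrl replicate 5.

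For the RIPOR genes the matching list held RHOA effectors and the kinases and adaptor that bind RIPOR1. Of 15 tested, 3 were called higher and 4 lower after siPADI2 in poly(A) RNA (median −0.01), against 28.8% and 27.9% of all tested genes, and 6 higher and 2 lower with total counts. Under the R1810A label 1 was called higher and 6 lower (median −0.10), against 22.6% and 24.3% of all tested genes. That 6 was 3 without R1810A replicate 1 or without WT replicate 2, and 2 were called higher with total counts, no low-count filter, the offset or without WT replicate 1. Citron kinase, encoded by CIT and needed for cell division, fell in both, with 17.1 and 17.0 CPM after siPADI2 against 38.9 and 32.5 CPM after siCtrl (−1.06, adjusted p = 8.12e-12), and by 0.97 in the libraries labelled R1810A (adjusted p = 8.08e-08). STK25, a kinase that binds RIPOR1, rose after siPADI2 (0.73, adjusted p = 1.26e-08) and ROCK1 fell (−0.43, adjusted p = 3.41e-05), while in the libraries labelled R1810A the adaptor PDCD10 rose (0.52, adjusted p = 2.35e-05) and PKN3 fell (−0.81, adjusted p = 1.06e-05). ROCK1 also fell in the libraries labelled R1810A (−0.20, adjusted p = 0.0156). In chromatin RNA 5 were called lower and 1 higher, against 20.1% and 12.2% of all tested genes. PKN3 (−1.58, adjusted p = 1.01e-09) and RHPN1 (−1.53, adjusted p = 1.31e-10) changed most. With the offset 3 were called lower and none higher.

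The few calls of these 5 lists as higher in chromatin RNA depended on the fit: with the Wald test of DESeq2 no gene of them was called higher. Without siCtrl replicate 5 the genes called higher were 1 effector outside the Borg family and none of the other 4 lists, and without siPADI2 replicate 1 they were 1 exchange factor and none of the other 4 lists. Of the exchange factors none was called lower with DESeq2, without siPADI2 replicate 1 or without siCtrl replicate 5. Of the septins 1 was called lower with DESeq2, with total counts or without siPADI2 replicate 2.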

How the data were processed

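Per the labels' protocols, stranded TruSeq kits were used, one for mRNA on poly(A) RNA and one for ribosome-depleted total RNA on chromatin RNA. Each library has 1 deposited table of whole-number counts of fragments per gene, with no normalization; STAR alignments on hg19 were counted over exons by the authors, per the file headers, with featureCounts 1.5.1 (poly(A)) or 1.4.6-p2 (chromatin), by strand. Symbols were matched for 51996 of 57820 genes. For every comparison its 4 libraries were fitted by themselves in edgeR 4.0.16 (quasi-likelihood F test, TMM, filterByExpr; R 4.3.3), with Benjamini-Hochberg adjustment over all tested genes and a threshold of 0.05; a standard error is the log2 fold change divided by the square root of F. CPM use the TMM-scaled libraries of each experiment. Alternatives were DESeq2 1.42.0, other scalings, no filter, an offset for G and C content (lowess), a replicate block and leaving out each library.

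The members and lists were chosen with earlier results of these data known. The text names all 9 members, up to 3 called genes per list and comparison by absolute fold change, and the 5 nearest profiles (log2 of CPM + 0.5, mean CPM of at least 1) of CDC42EP3 and RIPOR3. The labels are silent on whether replicate libraries are separate cultures; p-values thus measure only library-to-library spread, which may be technical. One list and some genes named by this rule are not reported here. Of the listed symbols SRGAP2 and PECAM1 were not matched. Intervals and floors cover counting error only.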

Additional observations from a re-analysis of the deposited data

Results flagged for a closer look

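Between RNA fractions, 2 of the 9 genes had every siPADI2 library on opposite sides of the siCtrl libraries. For CDC42EP1 the log2 fold change was 0.31 in poly(A) RNA and −0.86 in chromatin RNA, and for CDC42EP3 it was 0.74 in poly(A) RNA and −0.16 in chromatin RNA. In chromatin RNA CDC42EP3 was not called (edgeR, SE 0.213, adjusted p = 0.599), with 79 and 79 reads after siPADI2 against 206 and 198 reads after siCtrl. How many of all genes show such opposite sides was not counted, so nothing is read from the 2. The difference between fractions was not tested. With the offset for G and C content the chromatin value of CDC42EP1 was 0.13, above 0 as in poly(A) RNA, and that of CDC42EP3 was −0.55.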

How the results depend on the processing

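In chromatin RNA 10962 genes were called, 3706 with DESeq2, 5428 with the offset for G and C content and between 4846 and 7988 when a library was left out (4846 without siCtrl replicate 5, 6012 without siPADI2 replicate 2). Chromatin log2 fold changes with DESeq2 were −0.91 for CDC42EP1, −1.08 for CDC42EP2 and −0.73 for CDC42EP4, none called. Total counts gave −0.76 for CDC42EP1, not called, and 0.11 for RIPOR2, and moved the median of all genes by 0.11 in chromatin RNA, and by 0.18 after siPADI2 in poly(A) RNA. The offset gave 0.13 for CDC42EP1, −0.10 for CDC42EP2, −0.55 for CDC42EP3, 0.27 for CDC42EP4, 0.90 for CDC42EP5, −0.80 for CDC42 and −0.059 for RIPOR1. Leaving out a library gave −0.99 to −0.76 for CDC42EP1, −1.55 to −0.65 for CDC42EP2, −1.07 to −0.38 for CDC42EP4, −0.55 to 0.48 for CDC42EP5, −0.76 to −0.081 for CDC42 and −0.075 to 0.065 for RIPOR2; a lone library is then assumed to vary like the others. The cause of these changes was not tested. In poly(A) RNA after siPADI2 the calls split into 5395 higher and 5225 lower, and into 7398 higher and 3636 lower with total counts. Among poly(A) fold changes of the 9 genes, 1 of 80 alternatives changed sign after siPADI2 and 4 of 90 in the libraries labelled R1810A, at CDC42EP4 and CDC42EP1. Same-numbered libraries had deviations that correlated at 0.204 and 0.693 over genes in the 2 poly(A) experiments, but with 2 pairs the numbers are not shown to pair them; with a replicate block the calls were 11513 (against 10620) and 12582 (against 9010), and the block called, under the R1810A label, 9 exchange factors as higher and 8 as lower (against 8 and 2), 2 septins as higher (against none) and 2 RHOA effectors or RIPOR1 partners as higher (against 1), and 1 septin as higher after siPADI2 (against none). No paired analysis was possible in chromatin RNA because its groups share fewer than 2 replicate numbers. The small chromatin libraries limit CDC42EP5, CDC42EP2 and CDC42EP1 most.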
